A study of Rangifer tarandus with 4 samples.

Results

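Head-to-head gene pairs are neighbours transcribed away from each other, the minus-strand gene on the left and the plus-strand gene on the right, with their 5′ ends facing across a short gap. They were taken from the gene annotation of cattle (Bos taurus, assembly ARS-UCD1.2) deposited with a single-cell study of reindeer blood. Consecutive protein-coding genes were kept when they did not overlap and the 5′ ends of their gene lines lay at most 1000 bases apart. The rule gave 567 pairs, or 1134 genes, out of 19949 neighbouring pairs that do not overlap and 21861 protein-coding genes. The libraries of the study came from reindeer (Rangifer tarandus) mononuclear blood cells on day 3 after a wound, with about 12000 cells loaded for each. The back group had 2 libraries with the saphenous vein as tissue, and the antler group 2 with the distal antler velvet. Their counts were not analysed here, so no expression, depth or difference between sites is given, and every value below describes gene models of cattle. Coordinates count from 1 on that assembly.

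When the starts of 2 genes face each other at such a distance, the DNA between them can serve as the promoter of both, and is then called a bidirectional promoter. In mammals such promoters are often rich in CG and lack a TATA box, and they are known from genes of DNA repair, replication, metabolism and the mitochondrion. Tail-to-tail pairs, whose 3′ ends face each other, are the natural comparison, because they can be taken under the same distance limit without a shared start. Only the limit is shared, and the gaps below it were not matched. Sequence, transcription starts and promoter activity were not analysed, so the pairs are described by position and gene structure only, and whether any gap acts as a promoter was not tested.

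Head-to-head genes crowded into the shortest gaps. The distance between the 5′ ends ran from 3 to 993 bases, with a median of 200 bases (quartiles 106.5 and 433). Tail-to-tail pairs under the same limit numbered 524 and had a median of 407.5 bases (quartiles 182.5 and 667), and 418 same-strand pairs had a median of 467 bases. Gaps of at most 300 bases made up 62.96% of head-to-head pairs (357 of 567), 39.5% of tail-to-tail pairs (207 of 524) and 28.5% of same-strand pairs (119 of 418). The distance was part of the rule, so these shares are a description and were not tested.

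The count of head-to-head pairs fell steeply with distance and then levelled off. There were 323 pairs at 1 to 250 bases, 130 at 251 to 500 bases, 72 at 501 to 750 bases and 42 at 751 to 1000 bases. Beyond the limit the next bin also held 42 pairs, and the bins up to 5000 bases held 17 to 39 each. Tail-to-tail pairs started at 171 in the shortest bin and still numbered 94 in the bin that ends at 1000 bases. Over all distances the order turned: the median gap was 26248 bases for 4714 head-to-head neighbours and 11872 bases for 4545 tail-to-tail neighbours. Of these neighbours, 12.03% head-to-head and 11.5% tail-to-tail lay within the limit, against 3.91% of 10690 same-strand neighbours.

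**Figure D1:**
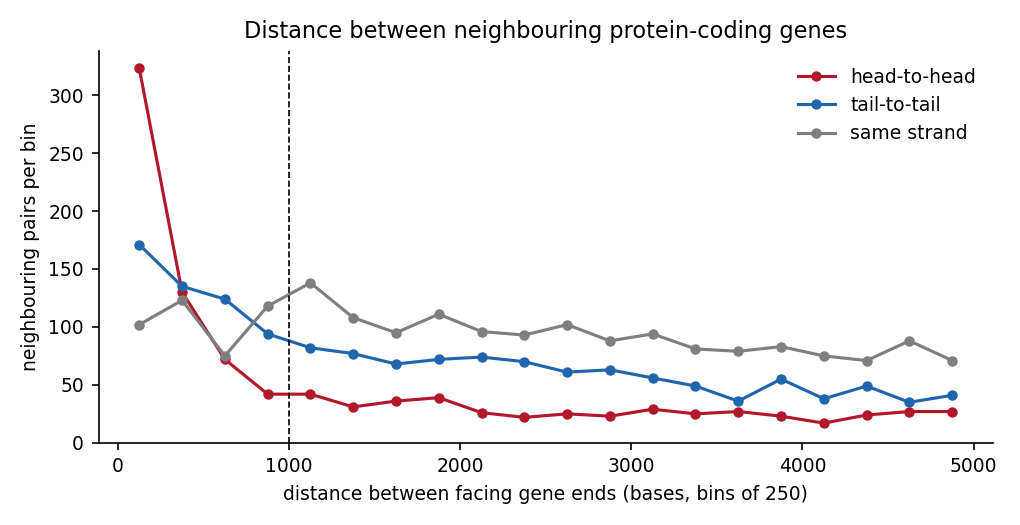
Number of neighbouring protein-coding pairs (y axis) by the distance between their facing ends in bins of 250 bases (x axis), for head-to-head, tail-to-tail and same-strand neighbours; the dashed line marks the limit of 1000 bases. The head-to-head curve starts at 323 pairs and is down to 42 at the limit, while the tail-to-tail curve goes from 171 to 94.

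Among the smallest gaps of named pairs were those of RPAIN and NUP88 at 3 bases, TRIP13 and BRD9 at 7 bases, CCDC13 and ACKR2 at 7 bases, and METTL23 and JMJD6 at 8 bases. RPAIN carries the replication protein A into the nucleus and NUP88 belongs to the nuclear pore. RPAIN (ENSBTAG00000025149) lay on chromosome 19 from 26120560 to 26128006 on the minus strand, and NUP88 (ENSBTAG00000011507) from 26128009 to 26149670 on the plus strand. ACKR2 is a receptor that scavenges chemokines. Close to the limit the members were FBXW5 and C8G at 975 bases, TULP2 and NUCB1 at 991 bases and TMEM104 and NAT9 at 993 bases. Just outside it lay an unnamed gene and ISOC2 at 1002 bases, KCTD9 and CDCA2 at 1013 bases, ANKRD27 and RGS9BP at 1017 bases and CCT7 and PRADC1 at 1022 bases.

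The gap depends on how far each gene model reaches upstream of its coding sequence. In 417 pairs both genes had an annotated 5′ untranslated region (UTR), and their median gap was 170 bases. In 123 pairs 1 gene had one, with a median of 280 bases, and in 27 pairs neither had one, with a median of 323 bases. A gene line without a 5′ UTR starts at the coding sequence, so the last 2 medians include any untranslated bases that the model lacks. Between the coding starts of the transcripts with the longest coding sequence, the median distance was 1392 bases (quartiles 572.5 and 6334), and 41.8% of pairs (237 of 567) had their coding starts within 1000 bases. Those transcripts began at the gene line's 5′ end in both genes of 397 pairs, and their own 5′ ends lay at most 1000 bases apart in 464 pairs.

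A list of 23 gene pairs known from the literature as divergent neighbours shows what the rule keeps and what it leaves out. Of these, 10 were members, 8 overlapped at their 5′ ends and 5 lay farther apart as neighbours. Overlap or a longer gap in the cattle models, not another gene in between, kept the remaining 13 out. The pairs were listed because they are known to be divergent, so the count of members says nothing on how common such pairs are.

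Members from that list joined genes of related and of unrelated function. SURF1, an assembly factor of cytochrome c oxidase (ENSBTAG00000030384, chromosome 11, 104259371 to 104263171, minus strand), lay 45 bases from SURF2, and the genes were nearly equal in length, with 3801 and 3643 bases. PRKDC, the catalytic subunit of the DNA-dependent protein kinase, had 86 exons and lay 573 bases from MCM4, a subunit of the replicative helicase with 17 exons.

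Other listed members were SARS2 and MRPS12 at 188 bases, the mitochondrial seryl-tRNA synthetase and a protein of the small subunit of the mitochondrial ribosome. SIRT3, a mitochondrial deacetylase, and PSMD13, a proteasome subunit, were 204 bases apart. SON, a splicing cofactor, and GART, an enzyme of purine synthesis, were 454 bases apart. SKA2, of the complex that holds kinetochores to microtubules, and PRR11 were 570 bases apart, and SERPINI1 and PDCD10 826 bases. TAP1, the peptide transporter of class I antigen presentation (ENSBTAG00000008953, chromosome 23, 7177583 to 7186556, minus strand), lay 257 bases from PSMB9, a subunit of the immunoproteasome (ENSBTAG00000008954, 7186813 to 7193342, plus strand).

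**Figure D2:**
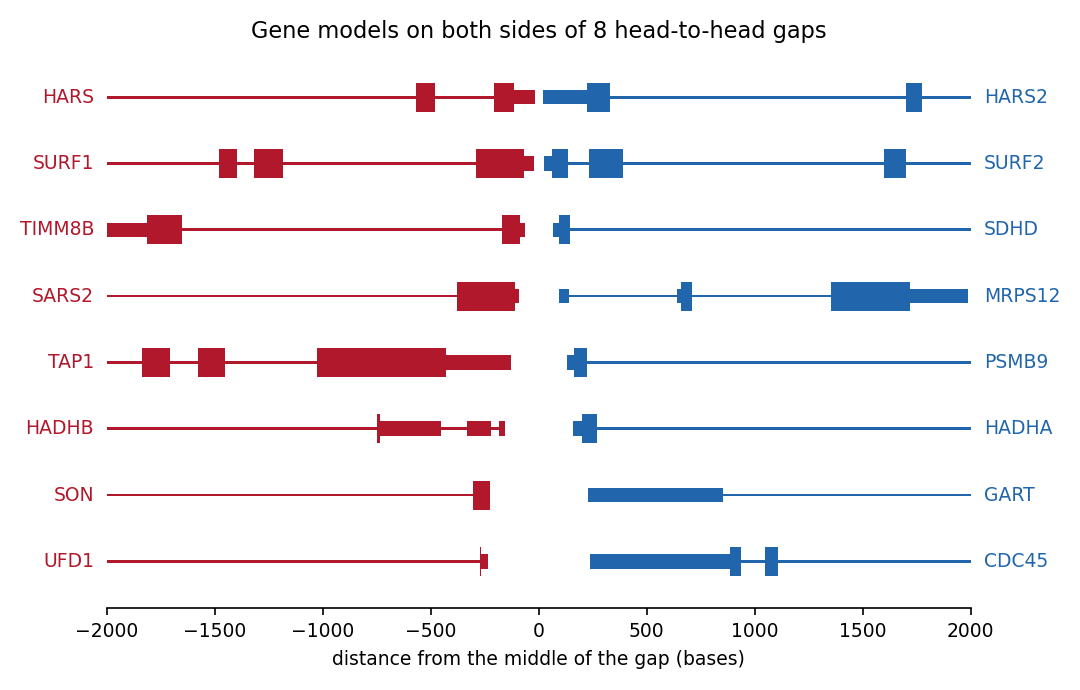
Gene models within 2000 bases of the middle of the gap (x axis, bases) in 8 head-to-head pairs, minus-strand gene in red and plus-strand gene in blue, with thick boxes for coding exons, thinner boxes for untranslated exons and lines for introns, over all transcripts of a gene. The gap widens from 42 bases between HARS and HARS2 at the top to 474 bases between UFD1 and CDC45 at the bottom.

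The 8 overlapping pairs of the list were divergent as well, but their models shared bases at the 5′ ends. The base excision repair gene NTHL1 and TSC2 shared 12 bases. PARP9 and DTX3L, 2 genes of the interferon response, shared 420 bases. ABCG5 and ABCG8, which together form a sterol transporter, shared 462 bases, CRYZ and TYW3 701 bases, COX4I1 and EMC8 805 bases, and the chaperonin genes HSPD1 and HSPE1 959 bases. The purine synthesis genes PPAT and PAICS shared 25093 bases. Across the annotation 297 divergent pairs overlapped at their 5′ ends, 209 of them by at most 1000 bases, with a median of 345 shared bases among the latter. The 567 pairs are thus close divergent pairs whose models leave a gap and are consecutive by start. Head-to-head pairs formed across gaps that no protein-coding gene covers numbered 585. The rule leaves out overlapping tail-to-tail pairs too: 442 overlapped at their 3′ ends, 233 of them by at most 1000 bases.

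The 5 listed pairs that lay farther apart include the type IV collagen genes of basement membranes. COL4A1 and COL4A2 were 44343 bases apart and COL4A4 and COL4A3 were 91174 bases apart. NPAT and the DNA damage kinase gene ATM were 10840 bases apart, PSMB1 and TBP 8450 bases, and BRCA2 and ZAR1L 2656 bases. The model of COL4A4 held 7 exons over 57922 bases, against 52 exons in COL4A3. Whether a missing upstream exon accounts for these gaps was not tested.

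Head-to-head genes were longer than tail-to-tail genes. The median gene length was 13492 bases (quartiles 5567.25 and 31966.5) over 1134 head-to-head genes and 9610.5 bases (quartiles 4383.5 and 21238.8) over 1048 tail-to-tail genes. All protein-coding genes had a median of 14041 bases, and the named ones among them 21004.5 bases. Both genes exceeded the median protein-coding gene in 30.9% of head-to-head pairs (175 of 567; 95% exact interval 27.1% to 34.8%) and in 18.7% of tail-to-tail pairs (98 of 524; 15.5% to 22.3%). The difference of 12.2 percentage points passed a two-sided Fisher's exact test (Benjamini-Hochberg adjusted p = 2.94e-05 over 8 properties). With a limit of 2000 bases it was 5.93 points (adjusted p = 0.0218, Fisher's exact test). Pairs with both genes below that median made up 33.7% of head-to-head pairs (191 of 567) and 41.2% of tail-to-tail pairs (216 of 524), a difference of -7.54 points (Fisher's exact test, adjusted p = 0.0275). That difference did not pass with a limit of 2000 bases (-0.82 points, adjusted p = 0.999, Fisher's exact test) or when pairs were formed across gaps that no protein-coding gene covers (-6.60 points, adjusted p = 0.0552, Fisher's exact test). These tests treat pairs as independent draws; the annotation is a full set, and 115 genes belong to a pair of each kind.

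Exon number was not ordered like length. Head-to-head genes had a median of 8 exons (quartiles 5 and 13) and tail-to-tail genes 9 exons (quartiles 5 and 14), and the median coding length was 1117.5 bases against 1284 bases. Genes of 20 exons or more made up 8.47% of head-to-head and 12.4% of tail-to-tail genes, while genes over 100000 bases made up 5.73% and 2.77%. Both kinds held fewer such long genes than all protein-coding genes (11.6%) or the named ones (14.3%). The introns at the 5′ end differed in the same direction as gene length, with a median for the first intron of 1837.5 bases in head-to-head genes, 1344 bases in tail-to-tail genes and 2581 bases in all protein-coding genes that have an intron. The first exon had a median of 188, 218.5 and 243 bases in these 3 sets. Coding sequence began in the first exon of 72.3% of head-to-head genes, 77.5% of tail-to-tail genes and 81.6% of all protein-coding genes. These medians and shares over genes are descriptions with no test.

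**Figure D3:**
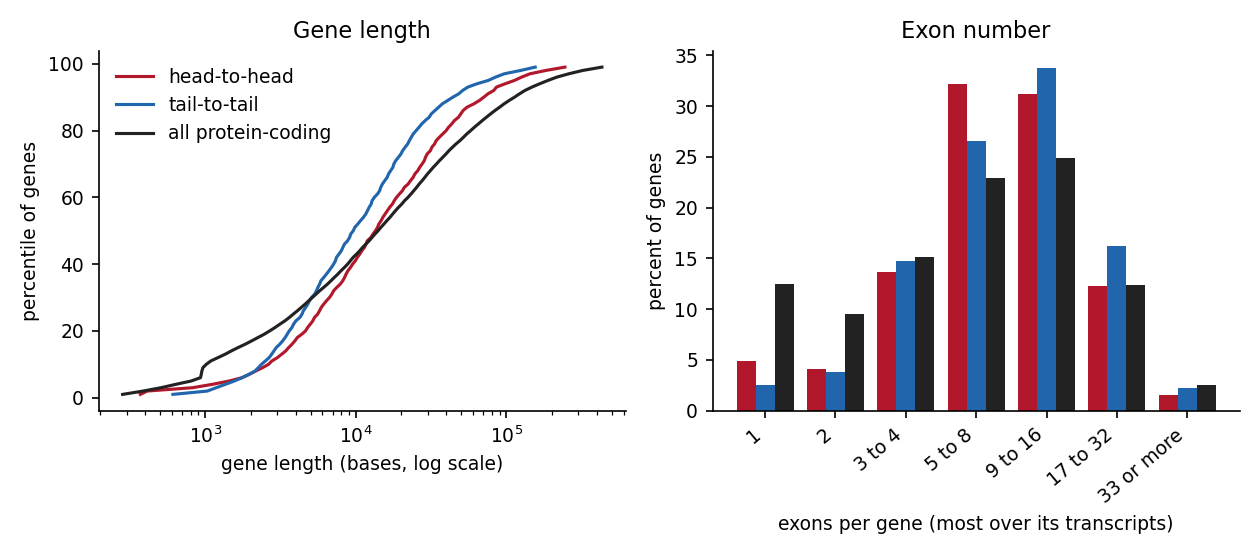
Left, cumulative distribution of gene length (x axis, bases on a log scale; y axis, percentile of genes); right, percent of genes (y axis) by exon number (x axis), for head-to-head genes in red, tail-to-tail genes in blue and all protein-coding genes in black. The red length curve lies to the right of the blue one at the median, 13492 against 9610.5 bases, and a single exon is present in 4.94% of head-to-head genes, 12.5% of all protein-coding genes and 4.38% of the named ones, which are not drawn.

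Within a pair, the longer gene was a median of 2.60 times as long as its partner, and in 65 pairs the ratio exceeded 10. Spearman's correlation between the lengths of the 2 genes was 0.35 over 567 head-to-head pairs, 0.23 over 524 tail-to-tail pairs and 0.13 over 418 same-strand pairs. For exon number it was -0.02, 0.11 and 0.21. Neighbours share their chromosome region and its gene density, so these values are descriptions. The minus-strand and plus-strand genes of head-to-head pairs had median lengths of 12915 and 13977 bases.

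The extremes show how unlike partners can be. SUGCT, a glutarate CoA-transferase gene, spanned 769810 bases on chromosome 4 and lay 326 bases from MPLKIP, at a ratio of 358. THAP10 and LRRC49 lay 99 bases apart at a ratio of 98.5. The largest summed lengths after SUGCT belonged to AP3M1 and ADK, 564503 bases with a gap of 488 bases, and to ITFG1 and PHKB, 526379 bases with a gap of 189 bases. RPGRIP1L, of the transition zone of cilia, and FTO, an RNA demethylase, lay 90 bases apart and spanned 98450 and 424157 bases.

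**Figure D4:**
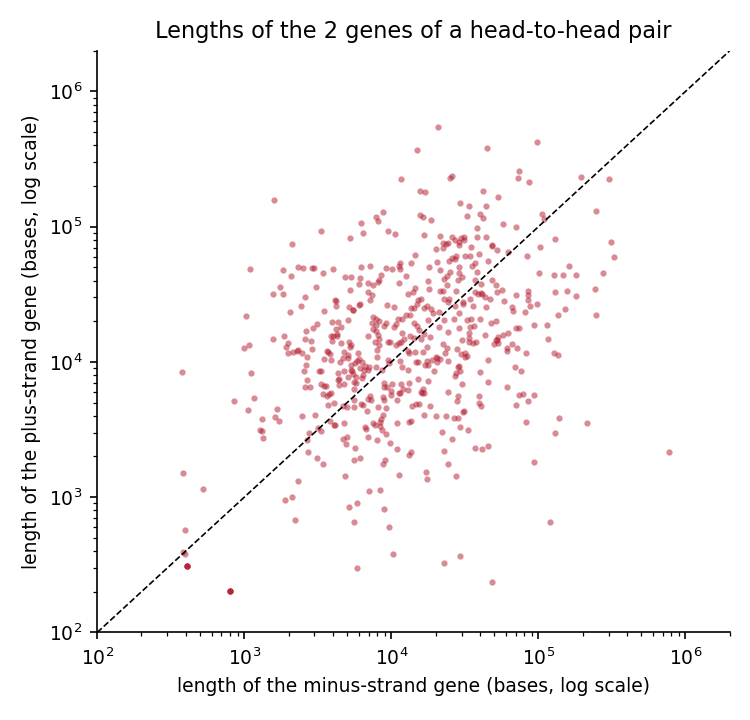
Length of the plus-strand gene (y axis, bases, log scale) against that of the minus-strand gene (x axis, bases, log scale), 1 point for each of the 567 head-to-head pairs; the dashed line marks equal length. Points scatter widely around the line, with Spearman's correlation at 0.35, and the point far to the right is SUGCT, 769810 bases long, with MPLKIP.

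A single-exon gene was present in 8.11% of head-to-head pairs (46 of 567) and 4.77% of tail-to-tail pairs (25 of 524). The difference of 3.34 points did not pass after adjustment (two-sided Fisher's exact test, adjusted p = 0.0542), but passed with a limit of 500 bases (5.46 points, adjusted p = 0.0129, Fisher's exact test) and with a limit of 2000 bases (4.75 points, adjusted p = 0.00196, Fisher's exact test). On assembled chromosomes alone it was 2.39 points and did not pass (6.798% against 4.41%, adjusted p = 0.181, Fisher's exact test). That setting drops 8 of the 46 pairs, all unnamed and on 1 unplaced scaffold. In 10 of 567 head-to-head pairs both genes had a single exon, against 2 of 524 tail-to-tail and 15 of 418 same-strand pairs. Of the 10, 4 lay on that scaffold with the same gene lengths (411 and 312 bases) and the same gap of 302 bases. Core histone genes, which package DNA and are read in divergent pairs of H2A and H2B, carried a histone symbol in 6 head-to-head pairs, 5 of them on chromosome 23. Their gaps fell in a narrow range from 263 to 323 bases, and HIST1H2AG and HIST1H2BJ were among the shortest pairs, 774 bases in all with a gap of 322 bases. HSPA1A and HSPA1L, 2 genes of the HSP70 chaperones, lay 435 bases apart with 1 and 2 exons. The other 40 pairs with a single-exon gene had no histone symbol, and included DOLK and NUP188, EXOC8 and SPRTN, and NDUFA13 and TSSK6. They also included the 8 of the scaffold, whose genes carry no symbol at all, so whether those are histone genes was not tested. The mitochondrial genes ND6 and CYTB met the rule with a gap of 74 bases; the mitochondrial genome is transcribed as long precursors from its control region.

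A 5′ UTR was annotated in 84.4% of head-to-head, 82.1% of tail-to-tail and 66.4% of all protein-coding genes, and in 80.6% of the named ones. Where present its median was 168, 187.5, 208 and 211 bases. Both genes had one in 73.5% of head-to-head and 68.7% of tail-to-tail pairs, a difference of 4.84 points that did not pass (Fisher's exact test, adjusted p = 0.131). Both genes had a 3′ UTR in 74.07% of head-to-head pairs (420 of 567; 95% exact interval 70.3% to 77.6%) and in 64.7% of tail-to-tail pairs (339 of 524; 60.4% to 68.8%). The difference of 9.38 points passed (Fisher's exact test, adjusted p = 0.00316). The facing ends enter the rule, and a tail-to-tail pair whose 3′ UTRs run into each other is not counted, so the shares with a UTR are not independent of how pairs were found. The share of pairs with more than 1 transcript in at least 1 gene was 68.3% and 67.6% (adjusted p = 0.846, Fisher's exact test).

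Both genes carried a symbol in 523 of 567 head-to-head pairs, or 92.2%, and in 91.4% of tail-to-tail pairs (adjusted p = 0.753, Fisher's exact test). In 33 pairs 1 gene was named and in 11 pairs neither was. Symbols with a shared stem, a sign of membership in 1 named family, were rare, in 8 head-to-head pairs (1.41%) and 11 tail-to-tail pairs (2.10%; adjusted p = 0.652, Fisher's exact test). Those 8 hold several partners that work together. HADHA and HADHB, the 2 subunits of the mitochondrial trifunctional protein of fatty acid oxidation, lay 318 bases apart with 20 and 16 exons. DUOX2, a dual oxidase that makes hydrogen peroxide, and its maturation factor DUOXA2 lay 21 bases apart with 33 and 6 exons. HARS and HARS2, the cytosolic and mitochondrial histidyl-tRNA synthetases, lay 42 bases apart with 13 exons each. NCBP2, of the cap-binding complex, and NCBP2AS2 lay 175 bases apart.

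Functions were read from 20 lists of genes, 13 of general cell processes and 7 of cell types, immunity and skin. Of all 16808 protein-coding genes with a symbol, 6.42% (1079) lay in a head-to-head pair and 5.93% (997) in a tail-to-tail pair, and each list is set beside these shares as a description with no test. In every one of the 13 general lists the head-to-head share was above 6.42% and above the list's own tail-to-tail share. The exact intervals of the cell cycle, aminoacyl-tRNA synthetase, proteasome, splicing, cilium and autophagy lists reached below 6.42%. All 13 general lists together matched 762 genes, of which 119 (15.6%; 95% exact interval 13.1% to 18.4%) lay in head-to-head and 63 (8.27%) in tail-to-tail pairs. The interval takes genes as independent draws. The tail-to-tail share of 8.27% was likewise above the 5.93% of all named genes. A general gene was present in 109 of 567 head-to-head and 61 of 524 tail-to-tail pairs, and in 10 and 2 pairs both genes came from these lists.

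Genome maintenance genes were well represented. Of 61 DNA repair genes, 13 (21.3%) lay in head-to-head and 9 (14.8%) in tail-to-tail pairs. FANCD2, a central protein of the Fanconi anaemia pathway, lay 88 bases from EMC3, and MRE11, a nuclease of double-strand break repair, 148 bases from ANKRD49. PALB2, the partner of BRCA2, lay 158 bases from DCTN5, XRCC4 of end joining 134 bases from TMEM167A, and the helicase gene WRN 594 bases from PURG. Of 53 replication genes, 9 (16.98%) lay in head-to-head and 5 (9.43%) in tail-to-tail pairs. Among the 9 were TK1, the cytosolic thymidine kinase, 21 bases from AFMID, and FEN1, the flap endonuclease, 264 bases from TMEM258. ORC6 lay 498 bases from VPS35. CDC45, of the replicative helicase, lay 474 bases from UFD1, which acts in protein degradation. Of 46 cell cycle genes, 6 (13.04%) lay in head-to-head and 3 (6.52%) in tail-to-tail pairs. The mitotic kinase gene AURKA lay 252 bases from the cleavage factor gene CSTF1, and NDC80 of the kinetochore 94 bases from METTL4.

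Nuclear genes of the mitochondrion had some of the highest shares. Of 41 import and chaperone genes, 9 (21.95%) lay in head-to-head pairs, of 72 oxidative phosphorylation genes 15 (20.8%), and of 77 mitochondrial ribosome genes 14 (18.2%). Their tail-to-tail shares were 14.6%, 11.1% and 10.4%. TIMM8B, an import chaperone of the intermembrane space, lay 128 bases from SDHD, a subunit of respiratory complex II. Among complex I genes, NDUFA7 lay 136 bases from RPS28 of the cytosolic ribosome, NDUFS1 167 bases from the elongation factor gene EEF1B2 and NDUFB9 46 bases from TATDN1. MRPL27 lay 36 bases from EME1, MRPL37 39 bases from CYB5RL, MRPL57 80 bases from SKA3 and MRPL32 210 bases from the proteasome gene PSMA2.

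Genes of protein and RNA synthesis followed. Of 74 cytosolic ribosome genes, 10 (13.5%) lay in head-to-head and 9 (12.2%) in tail-to-tail pairs, the smallest difference between the shares among the general lists. Examples are RPS18, 78 bases from VPS52, and RPL4, 144 bases from the kinetochore gene ZWILCH. Of 57 genes of RNA polymerases and general factors, 9 (15.8%) lay in head-to-head pairs and 1 in a tail-to-tail pair, among them POLR1A, 399 bases from PTCD3, and POLR3K, 226 bases from SNRNP25 of the minor spliceosome. The splicing list had 9 of 70 (12.9%) in head-to-head and 4 (5.71%) in tail-to-tail pairs. Among the 9 were SRSF2, 303 bases from MFSD11, and LSM7, 55 bases from SPPL2B. Of 37 aminoacyl-tRNA synthetase genes matched, 5 (13.5%) lay in head-to-head pairs and 1 in a tail-to-tail pair, with WARS 101 bases from WDR25.

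Proteasome genes reached 6 of 48 (12.5%) in head-to-head and 4 (8.33%) in tail-to-tail pairs, with PSMA7 111 bases from SS18L1 and PSMC5 377 bases from FTSJ3. Of 67 cilium and centrosome genes, 8 (11.9%) lay in head-to-head and 2 in tail-to-tail pairs, among them OFD1, 66 bases from TRAPPC2, and IFT122, of the transport along cilia, 110 bases from the DNA glycosylase gene MBD4. Of 59 genes of autophagy and ubiquitin ligation, 6 (10.2%) lay in head-to-head and 3 (5.08%) in tail-to-tail pairs. ATG12 lay 49 bases from AP3S1 and CUL4A, a ligase scaffold, 122 bases from PCID2.

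**Figure D5:**
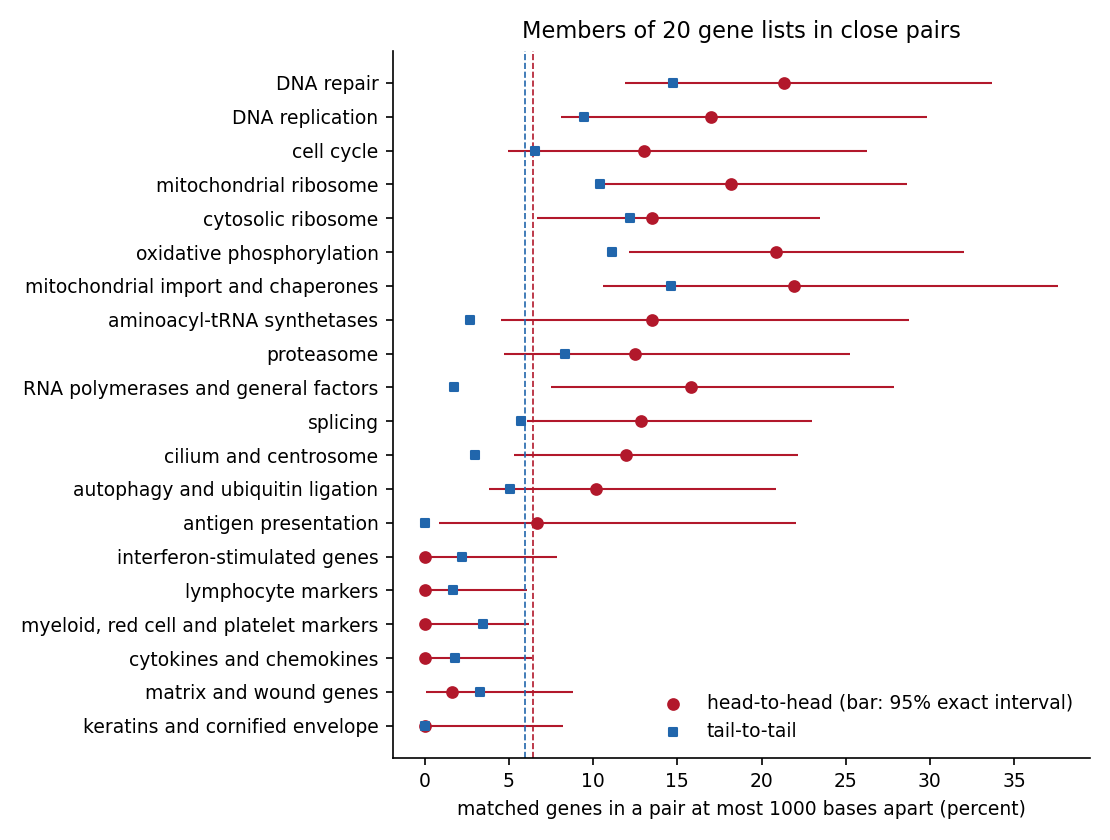
Percent of matched genes (x axis) of 20 lists (y axis) that lie in a head-to-head pair (red points with 95% exact intervals) or a tail-to-tail pair (blue squares); dashed lines mark the shares of all named genes, 6.42% and 5.93%. The red points of the 13 general lists lie to the right of the red line, and those of lymphocyte markers, myeloid, red cell and platelet markers, cytokines, interferon-stimulated genes and keratins lie at 0.

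None of the genes in 4 lists of blood cells and immunity lay in a head-to-head pair. Of 217 genes in the lists of lymphocyte markers, myeloid, red cell and platelet markers, cytokines and chemokines, and interferon-stimulated genes, 0 lay in a head-to-head pair, which allows a share of up to 1.38%, against 6.42% of all named genes. In tail-to-tail pairs the same genes numbered 5 (2.30%). Keratin and cornified envelope genes gave 0 of 43 in either kind, which allows up to 6.98%, and matrix and wound genes 1 of 61, SPARC, a matrix glycoprotein gene 415 bases from an unnamed single-exon gene. Antigen presentation, an immune list that is not among these 4, gave 2 of 30 genes (6.67%), both in the pair of TAP1 and PSMB9. That share is near the 6.42% of all named genes, so the count of 0 and its limit of 1.38% hold for the 4 lists only. Each of the 4 lists gave 0 on its own, and the pooled 0 depends on leaving antigen presentation out. The 7 lists of cell types, immunity and skin together gave 3 of 349 (0.860%) in head-to-head and 7 (2.01%) in tail-to-tail pairs. Immune genes outside the lists did occur in head-to-head pairs and were named after their values were seen. MYD88, the adaptor of Toll-like receptors, lay 681 bases from an unnamed single-exon gene on chromosome 22. The interferon regulatory factor gene IRF3 lay 137 bases from BCL2L12, OSCAR 595 bases from NDUFA3, and the chemokine receptor gene CCR10 868 bases from CNTNAP1.

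Divergent neighbours at any distance are given for the same 217 genes, again as a description. A divergent neighbour without overlap existed at any distance for 83 of the 217 genes (38.2%), with a median gap of 37160 bases, against 420 of 762 general genes (55.1%) with a median of 9998.5 bases and 7648 of 16808 named genes (45.5%) with a median of 24013.5 bases. The closest outside the limit were CXCL16, a chemokine, and ZMYND15 at 1034 bases. IL18 and TEX12 followed at 1741 bases, and CD3D and CD3G, chains of the T cell receptor complex, at 1961 bases. CXCL9 and ART3 were 2152 bases apart, and FOXP3, the transcription factor of regulatory T cells, and PPP1R3F 2433 bases. Divergent overlap was present as well: IFIT5 and LIPA shared 399 bases. Of the 217 genes, 5 overlapped a divergent neighbour at the 5′ end, against 58 of 762 general genes and 535 of 16808 named genes. Among the 4 lists the median gap ran from 20247 bases for interferon-stimulated genes, below that of all named genes, to 60686 bases for cytokines and chemokines. The part of gene density in these shares was not tested.

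Pairs were spread over all 30 nuclear chromosomes. Their number ran from 1.21 per 100 protein-coding genes on chromosome 9 (6 pairs) to 3.99 on chromosome 19 (48 pairs), with a median of 2.59. Chromosome 11 had 3.64 and the X chromosome 1.42. Across the 30 chromosomes, Spearman's correlation with gene density (genes per Mb) was 0.41, given as a description because chromosomes differ in size and in gene families. Unplaced scaffolds held 8 pairs. Genes with a close neighbour at both ends, head-to-head on one side and tail-to-tail on the other, numbered 115, with a median length of 7710 bases and 8 exons.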

How the data were processed

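The file deposited by the authors is a gene annotation in gene transfer format, for the cattle assembly ARS-UCD1.2 per the file headers. It gives feature positions in bases (from 1, both ends included) and belongs to no sample. The submitters' processing notes name Seurat, STAR and Cell Ranger 3. How it was applied to the reads of reindeer: not given in the sources used here. Antler and back libraries were grouped by the tissue in the labels and enter no comparison.

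Neighbours were consecutive protein-coding gene lines by start, and the distance was the right gene's start minus the left gene's end. Length is that of the gene line; exons are the most over a gene's transcripts; coding length, first exon and first intron are those of the transcript with the longest coding sequence; a UTR is the longest over transcripts. A stem is the first 3 letters of a symbol's leading letters. Genes were matched by exact symbol; 762 and 349 genes matched the 13 general and the 7 other lists, with 28 and 17 entries not matched, some of them alternative symbols. Each share of pairs was tested between the kinds with a two-sided Fisher's exact test, adjusted by Benjamini-Hochberg over 8 properties, with a threshold of 0.05; intervals are exact (Clopper-Pearson) and cover counting error only. The limit beside a count of 0 is 3 counts of the total. Pairs named are the known pairs, the extremes of distance and length, pairs with a shared stem, pairs of the cell-type and immune lists and the closest of the general lists; further general pairs, the single-exon pairs and MYD88 were chosen after their values were seen. Some pairs the rule names are not reported here. Members and lists were chosen with earlier results of these data known. Alternatives changed the limit, the genes and sequences used, the transcript ends, the UTR minimum and the stem. On a simulated annotation of 2000 genes, all 170 planted pairs were recovered. Its genes were placed without overlap, so recovery of pairs beside overlapping or nested genes was not tested. Scripts ran under Python 3.11.15, using SciPy 1.17.1, pandas 2.3.3, NumPy 2.4.6 and matplotlib 3.10.9.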

Additional observations from a re-analysis of the deposited data

How the results depend on the processing

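The number of head-to-head pairs ran from 453 with a limit of 500 bases to 715 with a limit of 2000 bases over 8 alternatives. An alternative that took neighbours over all genes, not only protein-coding ones, is counted here and below but returned the main values. Only 19 of 21880 genes are not protein-coding, so it could hardly differ. Pairs of long genes and pairs with a 3′ UTR in both genes kept their direction and passed in all 8 and all 9 alternatives tried, with differences of 5.93 (limit of 2000 bases) to 15.8 (limit of 500 bases) and of 6.53 to 10.6 percentage points (Fisher's exact test, adjusted p up to 0.0218 and 0.0233). The difference in pairs of short genes no longer passed with a limit of 2000 bases (-0.82 points) or when pairs were formed across gaps that no protein-coding gene covers (-6.60 points), an alternative chosen after seeing the data. The difference in pairs with a single-exon gene came to pass with a limit of 500 bases (5.46 points), with a limit of 2000 bases (4.75 points), among genes with a symbol (3.34 points) and with the ends of the transcript with the longest coding sequence (3.61 points), but fell to 2.39 points (adjusted p = 0.181, Fisher's exact test) on assembled chromosomes only. Differences that did not pass turned direction for more than 1 transcript (-0.74 points at 500 bases, -2.07 points with those transcript ends), for a shared stem (0.13 points at 500 bases) and for both genes named (-0.017 points with those transcript ends). The cause was not tested. Among genes with a symbol, the test of both genes named has no value. The annotation holds no depth.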

Other observations

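Families named by a symbol prefix, counted after the data were seen, spread unevenly over head-to-head pairs. Of 47 genes whose symbol starts with NDUF, subunits and assembly factors of respiratory complex I, 13 (27.7%) lay in a head-to-head and 8 (17.02%) in a tail-to-tail pair. Genes named by a structural feature or not yet named by function were also above the 6.42% of all named genes, with 24 of 230 TMEM genes (10.4%), 14 of 129 CCDC genes (10.9%) and 23 of 246 genes named as open reading frames (9.35%). Their tail-to-tail shares, 7.39%, 8.53% and 8.13%, were above the 5.93% of all named genes as well. FAM genes had 8.77% in each kind, and RNF genes 8.86% in head-to-head and 11.4% in tail-to-tail pairs. Zinc finger genes with the prefix ZNF gave 6 of 273 (2.20%; 3.30% tail-to-tail) and solute carrier genes 14 of 352 (3.98%; 4.55% tail-to-tail). Olfactory receptor, HOX and bitter taste receptor genes, which lie in arrays, gave none in either kind of pair. These were 0 of 135 olfactory receptor genes, which allows up to 2.22%, 0 of 39 HOX genes, which allows up to 7.69%, and 0 of 13 bitter taste receptor genes, which allows up to 23.1%. The limits for HOX and bitter taste receptor genes lie above the 6.42% of all named genes. Not every family in arrays was without pairs, since core histone genes had some on chromosome 23. These counts have no test.

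The 8 pairs on unplaced sequence all lay on 1 scaffold with 21 protein-coding genes. Their gaps took only 2 values, 302 bases in 4 pairs and 59 bases in 4 pairs, and none of the genes carried a symbol.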
